A study of Arabidopsis thaliana with 48 samples.

Results

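The libraries described here are 6 of the 48 in the series, namely 3 from wild type (WT) leaves under excess light for 8 min and 3 from WT leaves at 0 min. They were chosen by their labels alone, and no measured value entered the choice. The treated leaf, called the local or lit leaf, belonged to Arabidopsis thaliana plants of the Col accession with an intact RBOHD gene, 4 to 5 weeks old, grown at 23 °C in peat pellets under 8 h of light and 16 h of dark at 50 µmol m-2 s-1. A gooseneck lamp gave this leaf 2000 µmol m-2 s-1 for 8 min, whereas the 0 min leaf came from plants of the same age and growth regime and received no excess light. Leaves of many plants were pooled for each replicate, and the 3 replicates are biological repeats of the experiment. The p-values rest on the spread between replicate pools, estimated jointly over the 12 libraries of a table (24 for differences of changes). The 0 min leaf had neither the light nor the wait of 8 min, so the effect of the light and that of elapsed time and handling cannot be told apart. Lit WT leaves at 2 and 4 min, WT systemic leaves (a distant, unlit leaf of the plants with the lit leaf) and lit leaves of the rbohD knockout at 8 and 0 min, with 3 libraries in each group, were used only for comparison.

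Excess light gives a leaf more energy than photosynthesis can use. The surplus forms reactive oxygen species (ROS) in chloroplasts and warms the blade, and plants answer with non-photochemical quenching, antioxidant enzymes and chaperones that keep unfolding proteins soluble. Heat shock factors (HSFs) bind repeated GAA and TTC blocks in promoters and switch on the genes of these chaperones. Calcium signals, zinc finger factors of the ZAT type and factors of the DREB, ERF and WRKY families act within minutes of many stresses, and RBOHD, an NADPH oxidase of the plasma membrane, makes superoxide outside the cell.

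Values are deposited gene counts divided by a size factor of the library and are called normalized counts. The 3 libraries at 8 min held 28675623, 24688049 and 25396192 reads, against 20199698, 25454780 and 26903294 at 0 min. Over the 12 WT local libraries, at all 4 times, replicates varied by 4.04% (edgeR's common biological coefficient of variation). A gene was tested where at least 3 of the 12 libraries of the table had 10 normalized counts or more, and a change is a difference of log2(normalized count + 1), fitted with limma and called at an adjusted p under 0.05. Leaf identity was checked on marker genes, and the libraries held those of a green leaf. Of 3 mesophyll markers 0 were raised and 3 lowered at 8 min, with a summed level of 511000 to 530150 normalized counts at 8 min against 599480 to 631110 at 0 min. Guard cell markers (0 raised and 2 lowered of 5) summed to 818 to 884 against 907 to 1052, epidermis markers (0 raised and 2 lowered of 4) to 17512 to 18824 against 20139 to 21220, and phloem and vein markers (2 raised of 3) to 9479 to 10359 against 8744 to 8861. Trichome, root and flower and seed markers were low, with 1 marker of each tested. The root marker was raised, with sums of 45.8 to 71.6 at 8 min against 22.5 to 42.6 at 0 min, which did not overlap. Neither of the others was called, with sums of 41.0 to 50.1 against 35.5 to 41.7 for trichome and 17.9 to 21.3 against 18.3 to 30.8 for flower and seed, and the trichome factor MYB0 had no read in either group. The part of these shifts in the results below was not tested, and in whole leaves fewer cells of a type and less RNA per cell cannot be told apart. The sources used here do not say how the counter treated strand or reads shared by similar genes. Overlap with an annotated gene on the opposite strand therefore makes the values of several genes named below uncertain, among them HSP101, Hop3, HSP17.4, MBF1C, Fes1A, CLPB3, both cpHsc70 genes, HSF3, AT-HSFB2B, DREB2A, ORA47, TCH2, WRKY33, WRKY40, CAB1, LHCB2.3, LHCB4.2, PSAH2, CAT2, SEP2, RAB18, ELF3, TT4, ASN1, DIN10, bHLH38 and ZF3.

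Of 18055 genes tested, 4127 were raised (22.9%) and 4078 lowered (22.6%) in the lit leaf at 8 min. Most of these changes were small, with a median of 1.31-fold among raised and 1.26-fold among lowered genes, and the median change of all genes tested was -0.0059 on the log2 scale. The large changes were mostly rises. At least 2-fold, 717 genes were raised and 179 lowered, at least 4-fold 225 and 11, at least 8-fold 111 and 2, and at least 16-fold 62 and 0. Of the 62 genes raised at least 16-fold, 24 were HSFs, small heat shock proteins or larger chaperones. These 3 lists together took 3.17% ± 0.041 of the reads of a library at 8 min, against 1.32% ± 0.014 at 0 min (SD, n = 3).

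Genes were named where libraries of the 2 times did not overlap and the mean of the 6 was at least 50 normalized counts, and among them the largest rise on the log2(value + 1) scale was that of AT1G71000 (chr1:26768792-26770177 in TAIR10.1), annotated as a chaperone with a DnaJ domain, the part of a cochaperone that stimulates HSP70. It had 662, 683 and 616 normalized counts at 8 min, against 0, 0 and 0.866 at 0 min, and since its 0 min libraries lay at the floor of 3 reads, its transcripts were at least 191-fold higher at 8 min (limma adjusted p = 1.59e-16). For the same reason AT1G71000 passed the filter through later libraries alone. The order of genes near 0 depends on the number added to each value, and with 5 added AT1G71000 changed by 6.96, below AT1G53540 at 8.22, HSP23.6-MITO at 8.05, BAG6 at 7.89 and AT1G59860 at 7.07. Without replicate 2 of 0 min HSP23.6-MITO, at 9.22, also stood above AT1G71000, at 8.90. The rise came late, with means of 0.289, 0.673, 43.3 and 654 normalized counts at 0, 2, 4 and 8 min. HSP23.6-MITO, a small heat shock protein of mitochondria, had 2853, 3047 and 2817 normalized counts at 8 min, against 3.42, 11.8 and 4.33 at 0 min (log2 change 8.76, SE 0.32, limma adjusted p = 4.23e-16). Its levels at 2 min were no higher than at 0 min, with means of 6.51, 3.14, 166 and 2906 over the 4 times. BAG6, a cochaperone that binds calmodulin, had 19893, 20987 and 20381 normalized counts at 8 min, against 97, 68.9 and 78.8 at 0 min (log2 change 7.96, SE 0.10, limma adjusted p = 1.20e-24), and 529 on average at 4 min. For these 3 genes the lowest library at 8 min lay above every library at the other 3 times.

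**Figure D1:**
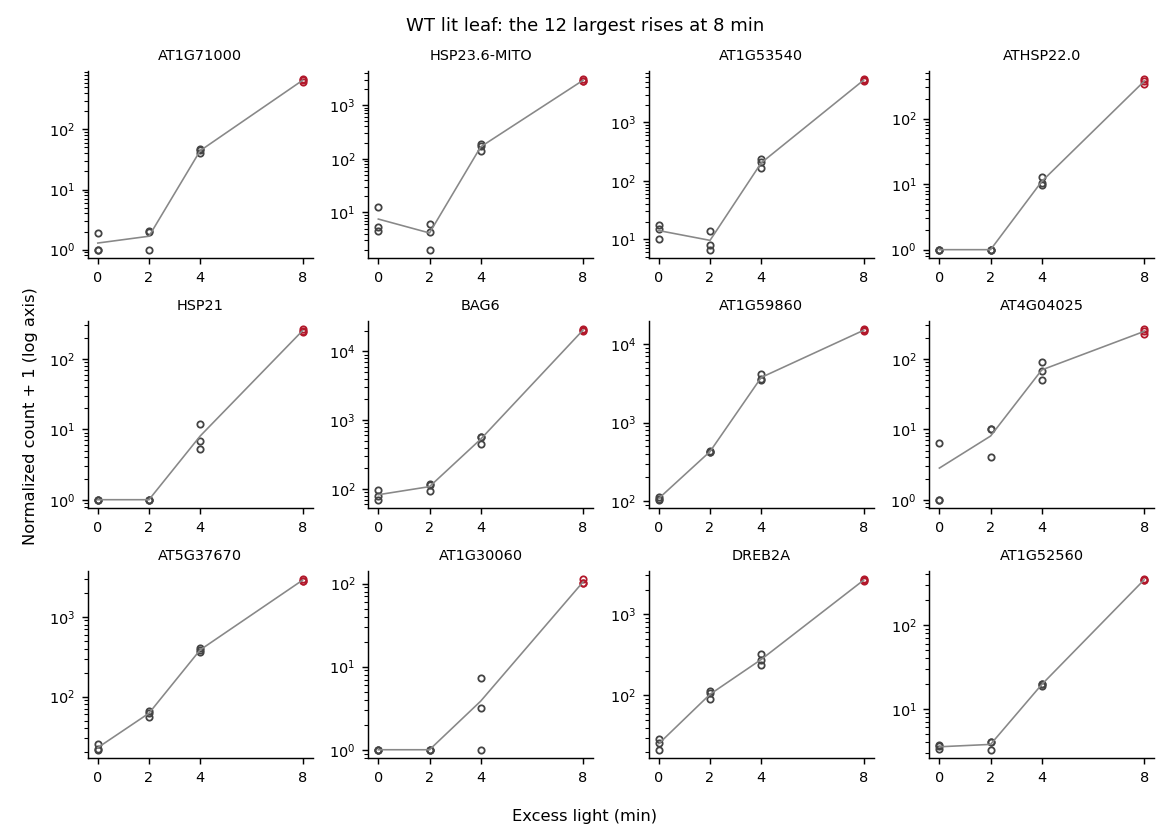
Normalized count + 1 (log axis) over minutes of excess light for the 12 genes with the largest rises on the log2(value + 1) scale at 8 min in the WT lit leaf; each circle is 1 library (red, 8 min), and the line joins the means of 3 libraries. In each panel the 3 libraries at 8 min lie above the 9 others, and AT1G71000 has 662, 683 and 616 normalized counts at 8 min.

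Small heat shock proteins, which hold unfolding proteins in solution without using ATP, rose as a group and most steeply of the lists. Of 19 family members found among the deposited genes 18 were tested, 17 were raised and 0 lowered, with a median log2 change of 5.93, and 16 rose at least 2-fold. Of the tested members 3 were at the floor at 0 min and passed the filter through later libraries alone. Their lower bounds lay above the list median, so setting them to these bounds could not move it. The same held for the other lists with genes at the floor. Over all genes tested 22.9% were raised, and the heat lists stood far above that share. The lists were chosen with earlier results of these data known, so this comparison is a description. The risers included proteins of the cytosol, the chloroplast, mitochondria and the endoplasmic reticulum (ER). ATHSP22.0, a protein of the ER, had 339.7, 400.4 and 376 normalized counts at 8 min, against 0, 0 and 0 at 0 min, at least 109-fold higher. HSP21, which protects photosystem II in chloroplasts, had 248, 264 and 243 normalized counts at 8 min, against 0, 0 and 0 at 0 min, at least 73.6-fold higher. AT1G52560, annotated as an HSP20-like chaperone, had 338, 349 and 343 normalized counts at 8 min, against 2.28, 2.72 and 2.60 at 0 min, at least 100-fold higher. Libraries of the 2 times did not overlap for any of the 3.

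Among the most abundant members, AT1G59860 had 14993, 15549 and 14643 normalized counts at 8 min, against 103, 106 and 112 at 0 min (log2 change 7.13, SE 0.06, limma adjusted p = 3.18e-28), and AT1G53540 had 5272, 5516 and 5134 normalized counts at 8 min, against 9.13, 16.3 and 13.9 at 0 min (log2 change 8.59, SE 0.21, limma adjusted p = 1.16e-19). Both are annotated as HSP20-like chaperones. AT5G37670, of the same annotation, rose in steps, with means of 21.9, 60.8, 384 and 2879.5 normalized counts at 0, 2, 4 and 8 min. HSP17.6II and HSP17.6A, class II proteins of the cytosol whose genes are neighbours, reached 6236 and 6478 normalized counts at 8 min, against 124 and 95.7 at 0 min. HSP17.4 averaged 629 ± 43.5 normalized counts at 8 min and 9.99 ± 4.46 at 0 min (SD, n = 3 each) The remaining members AT2G29500, AT1G54050, AT1G07400, HSP18.2, AT5G51440 and AT2G19310 changed by 2.39 to 5.94 on the log2 scale, each without overlap. The members that did not reach 2-fold were AT5G54660, raised by 0.27 on the log2 scale with overlapping libraries, and AT4G21870, which did not pass with 106, 99.9 and 107 normalized counts at 8 min, against 87.9, 104 and 101 at 0 min. AT5G47600 was too low to test, with 13.7, 6.47 and 10.7 normalized counts at 8 min, against 0, 0 and 0 at 0 min.

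At 0, 2, 4 and 8 min the list took 0.0159% ± 0.00014, 0.0215% ± 0.00076, 0.0717% ± 0.0075 and 0.379% ± 0.0097 of a library's reads (SD, n = 3). Larger chaperones were already abundant. This list of HSP100, HSP90, HSP70 and their cochaperones took 1.29% ± 0.014, 0.738% ± 0.0092, 1.23% ± 0.024 and 2.63% ± 0.032 at these times, so its level at 8 min followed a dip below the start.

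**Figure D2:**
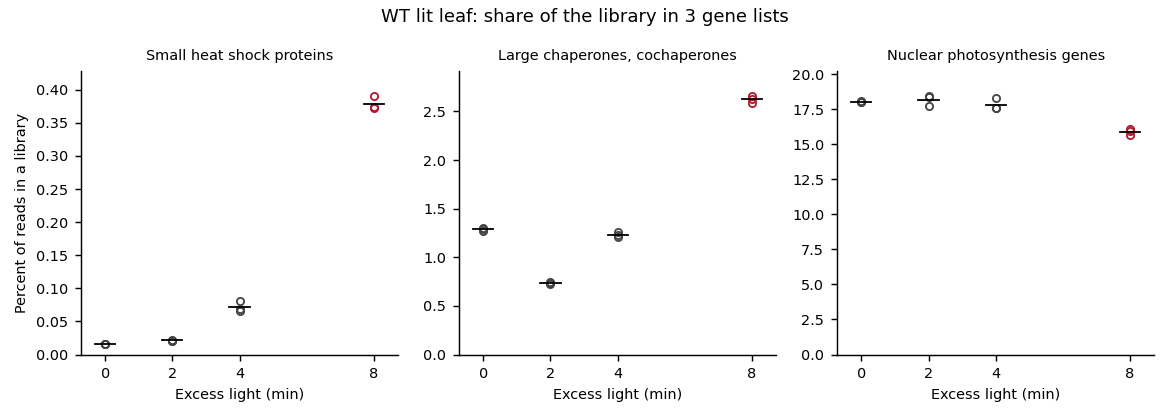
Percent of a library's reads (y axis, from 0) in 3 gene lists over minutes of excess light in the WT lit leaf; circles are libraries (red, 8 min) and bars the means of 3. Small heat shock proteins reach 0.379% at 8 min, large chaperones 2.63% after a low of 0.738% at 2 min, and nuclear photosynthesis genes stand at 15.9% at 8 min against 18% at 0 min.

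Of 27 larger chaperones and cochaperones tested, 23 were raised and 2 lowered, with a median of 1.30 and 16 members raised at least 2-fold. Among genes that met the rule on level and overlap, the largest gains in normalized counts lay here, without correction for transcript length. HSP70, the stress-inducible cytosolic HSP70, had 59620, 59166 and 58187 normalized counts at 8 min, against 8956, 9370.1 and 9082 at 0 min (log2 change 2.69, SE 0.04, limma adjusted p = 2.38e-23). HSP101, the disaggregase that rescues aggregated proteins, had 37017, 38662 and 36525 normalized counts at 8 min, against 1676, 1731 and 1696 at 0 min (log2 change 4.46, SE 0.04, limma adjusted p = 2.13e-26). HSP90.1, the stress-inducible cytosolic HSP90, had 32464, 33108 and 31517 normalized counts at 8 min, against 3117, 3628 and 3462 at 0 min (log2 change 3.25, SE 0.05, limma adjusted p = 2.96e-23). HSP81-2, a constitutive HSP90 with near-identical neighbours, had 58455, 57529 and 55645 normalized counts at 8 min, against 21768, 24310 and 25187 at 0 min (log2 change 1.27, SE 0.05, limma adjusted p = 7.89e-15). None of these 4 genes had overlapping libraries. The counter's treatment of reads shared by HSP81-2, HSP81-3 and Hsp81.4 is not given in the sources used here, so their split is uncertain. HSP81-3 averaged 40619 ± 1168 normalized counts at 8 min and 23073 ± 664 at 0 min (SD, n = 3 each).

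Cochaperones and regulators rose with them. Hop3, which links HSP70 to HSP90, had 18767, 19829 and 18259 normalized counts at 8 min, against 744, 799 and 778 at 0 min (log2 change 4.61, SE 0.05, limma adjusted p = 4.67e-26). Hsp70b, another inducible HSP70, averaged 4464 ± 128 normalized counts at 8 min and 87.9 ± 18.3 at 0 min (SD, n = 3 each). MBF1C, a coactivator needed for thermotolerance, averaged 9093 ± 426 normalized counts at 8 min and 483 ± 65 at 0 min (SD, n = 3 each). Organelle disaggregases also rose, with log2 changes of 2.18 for CLPB4 of mitochondria and 1.30 for CLPB3 of chloroplasts. The immunophilins AT5G48570 (ROF2) and ROF1, which bind HSP90, changed by 2.97 and 1.28, and the HSP70 exchange factor Fes1A by 2.77. HSC70-1, the most abundant cytosolic HSP70, did not pass with 125000, 122540 and 120920 normalized counts at 8 min, against 117250, 117260 and 119310 at 0 min, though its libraries did not overlap. The chloroplast proteins cpHsc70-1 and cpHsc70-2 moved apart, cpHsc70-1 by 0.23 and cpHsc70-2 by -0.15. Hop1 was lowered at -0.13 and AT4G02450 did not pass. The J-domain cochaperones J2 and J3 changed by 0.74 and 0.67, and HSA32, which prolongs acquired thermotolerance, by 3.17.

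HSFs moved apart. Of 20 matched family members 15 were tested, 9 were raised and 1 lowered, with a median of 0.72. The inducible factors rose most. HSFA2, which prolongs the heat response, had 23866, 24025 and 23672 normalized counts at 8 min, against 659.9, 666 and 707 at 0 min (log2 change 5.14, SE 0.06, limma adjusted p = 8.04e-26), the highest level of any HSF in this leaf. HSFA7A had 3274, 3500.1 and 3239 normalized counts at 8 min, against 52.5, 45.3 and 62.3 at 0 min (log2 change 5.95, SE 0.11, limma adjusted p = 4.53e-22). AT-HSFA7B had 85.1, 95.2 and 87.7 normalized counts at 8 min, against 0, 0 and 0 at 0 min, at least 26.1-fold higher. Class B factors, which act mainly as repressors, rose too. HSF4 (HSFB1) had 5088, 5358 and 5300.4 normalized counts at 8 min, against 836, 829 and 836 at 0 min (log2 change 2.65, SE 0.05, limma adjusted p = 3.42e-21), AT-HSFB2B changed by 2.97 and HSFB2A by 2.46. The HSFA1 proteins are the constitutive activators that start the response, and their transcripts moved less. HSF1 (HSFA1A) and HSFA1D did not pass, with log2 changes of -0.12 and 0.14 and overlapping libraries, whereas HSF3 (HSFA1B) changed by 0.55 and HSFA1E by 0.72. HSFB4 was the lowered member, at -0.54 with a level under 60 normalized counts in every library. RHA1 (HSFA4C), AT-HSFA5 and HSFA3 did not pass, HSFA6A, HSFA6B, HSFA9, HSFB3 and HSFC1 were too low to test, and the symbol HSFA4A did not match an entry.

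Promoters of these genes are shown because the elements that HSFs bind can be read in them. The search used GAANNTTC and TTCNNGAA, adjoining blocks of the heat shock element, on both strands in the 250 bases before the gene start that RefSeq gives in TAIR10.1, and capitals mark each match, overlapping matches being joined.
AT1G71000, chr1:26770178-26770427, minus strand: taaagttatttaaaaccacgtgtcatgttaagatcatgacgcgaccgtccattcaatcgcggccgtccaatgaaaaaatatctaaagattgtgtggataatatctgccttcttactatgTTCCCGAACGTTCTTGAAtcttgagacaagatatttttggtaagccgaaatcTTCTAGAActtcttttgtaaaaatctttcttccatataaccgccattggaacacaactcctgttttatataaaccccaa
HSFA7A, chr3:19264891-19265140, plus strand: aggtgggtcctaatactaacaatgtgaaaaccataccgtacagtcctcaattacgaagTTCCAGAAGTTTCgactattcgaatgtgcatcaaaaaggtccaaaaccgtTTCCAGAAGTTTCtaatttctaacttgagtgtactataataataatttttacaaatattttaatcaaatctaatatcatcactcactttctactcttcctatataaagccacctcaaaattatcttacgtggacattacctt
HSFA2, chr2:11135374-11135623, plus strand: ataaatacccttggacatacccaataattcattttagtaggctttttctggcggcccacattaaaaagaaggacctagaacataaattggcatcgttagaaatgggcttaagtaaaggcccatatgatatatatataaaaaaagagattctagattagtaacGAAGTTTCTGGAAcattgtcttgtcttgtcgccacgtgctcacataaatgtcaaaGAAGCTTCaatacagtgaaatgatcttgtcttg

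AT1G71000 and HSFA7A each had 4 matches in this window and HSFA2 had 3. The letters occurred in 29.0% of 221 promoters of genes raised at least 4-fold, in 25.8% of 675 raised at least 2-fold and in 14% of 179 lowered at least 2-fold, against 16.1% of 17962 promoters of all genes tested and 16.4% of all 37897 annotated promoters. A match stood in 36.8% of 19 promoters of small heat shock proteins, in 22.2% of 27 of larger chaperones and in 20% of 20 of HSFs. A match is a description of the letters and not a shown binding site, and these gene sets were chosen on the same change.

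ER chaperones, which fold secreted proteins, rose slightly as a group. Of 11 tested, 10 were raised and 0 lowered, with a median of 0.44 and 0 members raised 2-fold. BIP2, the main HSP70 of the ER, had 5651, 5645 and 5952 normalized counts at 8 min, against 3460.4, 4295 and 3573 at 0 min (log2 change 0.61, SE 0.06, limma adjusted p = 1.52e-08). BZIP28 and BZIP60, membrane-held factors that activate this set, changed by 0.97 and 0.67, and CRT1a, a calreticulin, did not pass at 0.11.

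Early stress regulators rose strongly from low levels. Of 11 factors of the CBF, DREB2 and ERF families tested, 9 were raised and 1 lowered, with a median of 2.10. DREB2A, an activator of drought and heat genes, had 2678, 2621 and 2533 normalized counts at 8 min, against 20.6, 28.1 and 25.1 at 0 min (log2 change 6.68, SE 0.12, limma adjusted p = 3.07e-22). Its means were 24.6, 102, 276 and 2611 normalized counts at 0, 2, 4 and 8 min. CBF1, an activator of cold genes, had 72.3, 63.8 and 71.6 normalized counts at 8 min, against 0, 1.81 and 0 at 0 min, at least 20.2-fold higher, and CBF2 of the same cluster had 331, 308 and 309 normalized counts at 8 min, against 11.4, 17.2 and 19.9 at 0 min (log2 change 4.24, SE 0.18, limma adjusted p = 1.22e-14). ERF104, a substrate of the immune kinase MPK6, had 941, 863 and 863 normalized counts at 8 min, against 42.2, 36.3 and 36.4 at 0 min (log2 change 4.50, SE 0.10, limma adjusted p = 6.03e-20), and ERF5 averaged 101 ± 4.01 normalized counts at 8 min and 31 ± 4.28 at 0 min (SD, n = 3 each). ERF2 was lowered, with 41, 36.1 and 54.6 normalized counts at 8 min, against 68.5, 82.5 and 77.9 at 0 min (log2 change -0.80, SE 0.20, limma adjusted p = 0.0025). DREB2B, DREB2C, RRTF1 and AT5G51190 were too low to test. KIN1, COR15A and LTI78, which CBFs activate in the cold, were lowered at this time, with the values given with the abscisic acid genes.

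Zinc finger factors of the ROS response also rose, with 6 of 8 tested raised, 0 lowered and a median of 1.45. RHL41 (ZAT12), a marker of hydrogen peroxide responses, had 791, 813 and 829 normalized counts at 8 min, against 21.7, 21.8 and 13 at 0 min (log2 change 5.39, SE 0.15, limma adjusted p = 2.60e-18). STZ (ZAT10), a repressor with a known part in excess light acclimation, had 2711, 2384 and 2490.1 normalized counts at 8 min, against 77.6, 98.8 and 70.1 at 0 min (log2 change 4.94, SE 0.10, limma adjusted p = 5.33e-21), and ZAT6 averaged 1075 ± 85 normalized counts at 8 min and 85.4 ± 5.48 at 0 min (SD, n = 3 each). ZF3 and AT2G28200 (ZAT5) did not pass. ORA47, an ERF-type factor tied to jasmonate synthesis that is in none of the lists, had 228, 178 and 201 normalized counts at 8 min, against 4.57, 8.16 and 4.33 at 0 min (log2 change 4.97, SE 0.30, limma adjusted p = 7.32e-12).

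Calcium-binding and touch genes formed another rising group, with 11 of 16 tested raised, 1 lowered and a median of 1.31. CML37, a calmodulin-like protein, had 287, 227 and 284 normalized counts at 8 min, against 32, 36.3 and 26 at 0 min (log2 change 3.04, SE 0.14, limma adjusted p = 3.21e-14), and CML23 averaged 199 ± 26.8 normalized counts at 8 min and 30.1 ± 10.9 at 0 min (SD, n = 3 each). CML38 lay at the floor at 0 min, with 21.7, 26.8 and 20.6 normalized counts at 8 min, against 2.28, 0.907 and 1.73 at 0 min, at least 6.72-fold higher. TCH4, a cell wall enzyme of the touch response, changed by 2.70, and the vacuolar calcium exchanger CAX3 by 2.49. TCH2 (CML24), a calmodulin-like touch protein, had 1586, 1410.2 and 1428 normalized counts at 8 min, against 627, 597 and 600.1 at 0 min (log2 change 1.27, SE 0.07, limma adjusted p = 6.83e-13). Its promoter is shown because it holds 4 matches to CGCGTT, the core of the rapid stress response element, which are marked in capitals. The matches on opposite strands overlap each other and are joined. The glutamate receptor channels of wound signalling moved apart and little, GLR3.3 by 0.24 (raised) and GLR3.6 by -0.49 (lowered).
TCH2, chr5:14999620-14999869, minus strand: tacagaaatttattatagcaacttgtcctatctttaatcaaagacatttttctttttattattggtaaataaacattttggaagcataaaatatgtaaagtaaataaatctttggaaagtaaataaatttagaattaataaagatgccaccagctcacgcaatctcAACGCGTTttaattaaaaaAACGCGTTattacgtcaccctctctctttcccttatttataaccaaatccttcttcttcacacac

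CGCGTT occurred in 5.88% of promoters of genes raised at least 4-fold, in 7.56% of those raised at least 2-fold and in 1.68% of those lowered at least 2-fold, against 2.81% of promoters of all genes tested and 2.58% of all annotated promoters. The W-box (TTGACC or TTGACT), which WRKY factors bind, stood in 28.5%, 35.7% and 28.5% of these gene sets, against 27.9% of all genes tested and 27.5% of annotated promoters. The core of the dehydration-responsive element that DREB factors bind (CCGAC) stood in 14%, 12.7% and 10.6%, against 13.1% of all genes tested and 12% of annotated promoters.

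WRKY factors, regulators of defence, were mixed. Of 23 tested, 12 were raised (52.2%) and 4 lowered (17.4%), against 22.9% and 22.6% over all genes tested, with a median of 0.48. WRKY40 had 566, 537 and 521 normalized counts at 8 min, against 79.9, 83.4 and 84 at 0 min (log2 change 2.70, SE 0.14, limma adjusted p = 4.80e-13). WRKY33, an activator of camalexin synthesis, had 2550, 2395 and 2480.2 normalized counts at 8 min, against 473, 432 and 402 at 0 min (log2 change 2.51, SE 0.07, limma adjusted p = 2.92e-18), and WRKY46 averaged 1333 ± 70.7 normalized counts at 8 min and 352 ± 32.8 at 0 min (SD, n = 3 each). On the lowered side, WRKY38 and WRKY62, repressors of basal defence, changed by -1.09 and -1.04, and WRKY18 and WRKY54 by -0.41 and -0.25. Genes of the salicylic acid (SA) pathway and pathogenesis-related (PR) genes moved together. All 14 listed genes were tested and 14 were raised, with a median of 0.87 and 5 raised at least 2-fold. CBP60G, an activator of SA synthesis, had 1696, 1609 and 1757 normalized counts at 8 min, against 434, 527 and 442 at 0 min (log2 change 1.85, SE 0.07, limma adjusted p = 6.93e-16). FMO1, which makes N-hydroxypipecolic acid, had 32.1, 27.7 and 63.5 normalized counts at 8 min, against 9.13, 9.07 and 15.6 at 0 min (log2 change 1.73, SE 0.26, limma adjusted p = 9.45e-06), and PBS3, which conjugates isochorismate in SA synthesis, averaged 1329 ± 148 normalized counts at 8 min and 513 ± 51.4 at 0 min (SD, n = 3 each). BGL2 (PR2) changed by 1.21 and PR1, the usual marker of SA responses, had 1217, 1202 and 1458 normalized counts at 8 min, against 934, 991 and 778 at 0 min (log2 change 0.52, SE 0.13, limma adjusted p = 0.0019).

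Nuclear genes of photosynthesis moved the other way by small amounts. Of 32 tested, 0 were raised and 24 lowered, with a median of -0.21, and the list took 15.9% ± 0.21 of a library's reads at 8 min, against 18% ± 0.034 at 0 min (SD, n = 3). Mesophyll markers, to which RBCS1A of this list belongs, were lowered too, 3 of 3, with the sums given above, and their part in this result was not tested. Among genes that met the rule on level and overlap, the largest losses in normalized counts were here, without correction for transcript length. CAB1, an antenna protein of photosystem II, had 638100, 577240 and 632860 normalized counts at 8 min, against 746790, 694800 and 731900 at 0 min (log2 change -0.23, SE 0.07, limma adjusted p = 0.0077). RBCS1A, the most abundant small subunit of Rubisco, had 359920, 341720 and 370540 normalized counts at 8 min, against 412430, 404370 and 406450 at 0 min (log2 change -0.19, SE 0.06, limma adjusted p = 0.014). Both lost the call without replicate 2 of 8 min, with adjusted p of 0.064 for CAB1 and 0.081 for RBCS1A, and with no filter on low values, with adjusted p of 0.071 for CAB1 and 0.076 for RBCS1A. CAB2 and CAB3, near-identical to CAB1 and so uncertain in their split, changed by -0.29 and -0.27. The largest fold change was that of LHCB2.3, an antenna protein moved between photosystems, which had 26265, 24497 and 24706 normalized counts at 8 min, against 40721, 37510 and 41918 at 0 min (log2 change -0.67, SE 0.05, limma adjusted p = 1.47e-10). LHCB4.2 changed by -0.35 and PSAH2, a photosystem I subunit, by -0.32. LHB1B2 is listed at 0 in every library.

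Of 13 photoprotection genes tested 5 were raised (38.5%) and 1 lowered (7.69%), against 22.9% and 22.6% over all genes tested, with a median of 0.07. The early light-induced proteins stood out. ELIP2 had 276, 301 and 271 normalized counts at 8 min, against 102, 111 and 96.1 at 0 min (log2 change 1.45, SE 0.13, limma adjusted p = 3.78e-09), and ELIP1 had 632, 605 and 579 normalized counts at 8 min, against 247, 278 and 268 at 0 min (log2 change 1.19, SE 0.08, limma adjusted p = 9.74e-11). Both are thought to bind pigments freed from the antenna, and both had means below 0 min at 2 min, at 49.5 and 91.8 normalized counts. SEP2 of the same family changed by 0.30. NPQ4 (PsbS), the sensor of quenching, did not pass with 60281, 59040 and 57751 normalized counts at 8 min, against 62704, 62751 and 64475 at 0 min.

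Enzymes that remove ROS changed little, with 5 of 15 tested raised, 3 lowered and a median of -0.0084, against 22.9% raised and 22.6% lowered over all genes tested. APX2, the inducible cytosolic ascorbate peroxidase, had 27.3, 49 and 33.1 normalized counts at 8 min, against 3.42, 0 and 0 at 0 min, at least 10.6-fold higher (limma adjusted p = 1.78e-05). APX2 lay at the floor at 0 min and was tested only because lit libraries passed the filter. CAT3 had 15810, 15132 and 17109 normalized counts at 8 min, against 10806, 12376 and 11219 at 0 min (log2 change 0.48, SE 0.05, limma adjusted p = 2.10e-07), and CAT2, the main leaf catalase, did not pass with 120060, 118570 and 116510 normalized counts at 8 min, against 111190, 107090 and 111790 at 0 min. FSD1, the iron superoxide dismutase, was lowered with 2980.5, 2904 and 2884 normalized counts at 8 min, against 4244, 4457 and 4292 at 0 min (log2 change -0.57, SE 0.04, limma adjusted p = 7.27e-11). Of the NADPH oxidases, 7 matched and 3 passed the filter. RBOHD had 2127, 2153 and 2145 normalized counts at 8 min, against 1373, 1364 and 1367 at 0 min (log2 change 0.65, SE 0.04, limma adjusted p = 1.66e-11), RBOHF had 339, 326 and 279 normalized counts at 8 min, against 300.3, 294 and 286 at 0 min and did not pass, and RHD2 was low with overlapping libraries. The symbols RBOHE, RBOHG and RBOHI did not match an entry.

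**Figure D3:**
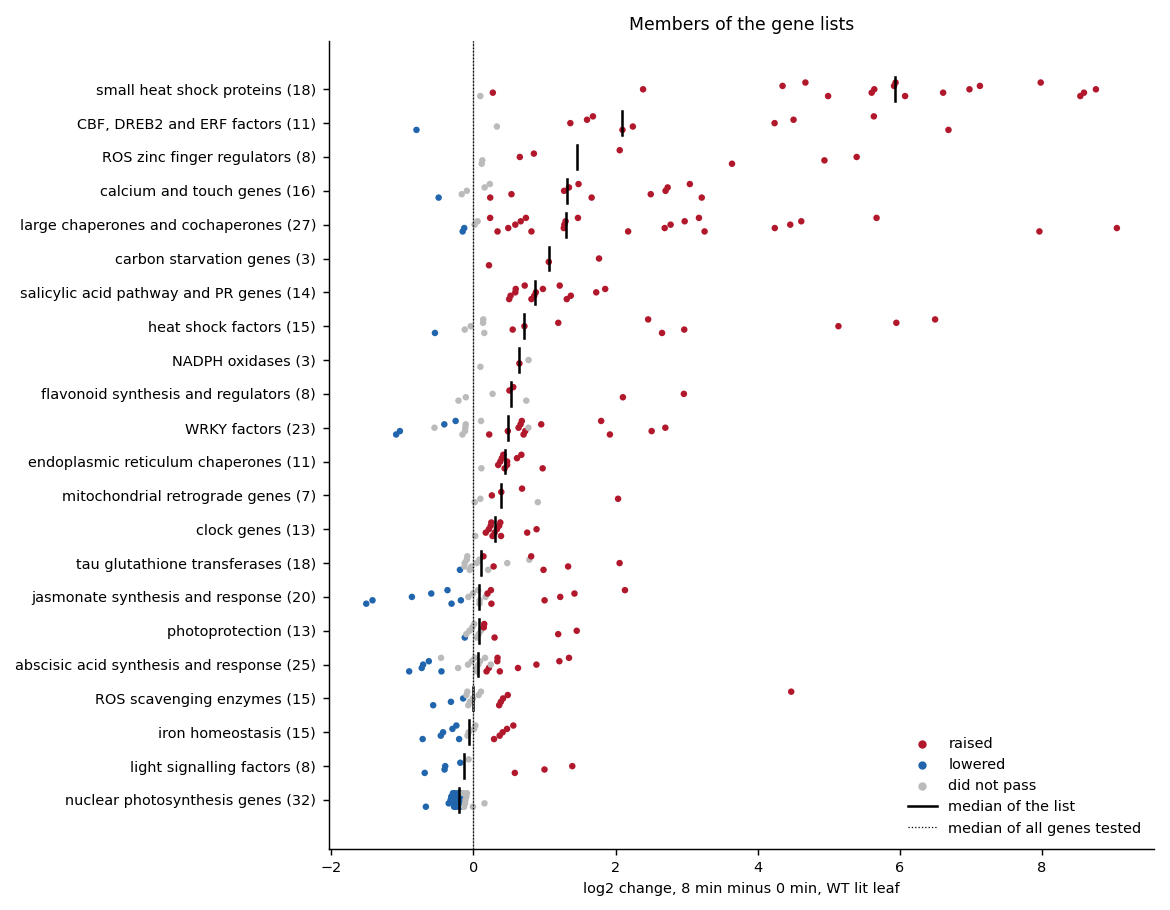
Log2 change from 0 to 8 min in the WT lit leaf (x axis) for the tested members of each gene list (number in brackets); points are genes, red raised, blue lowered and grey not past the threshold, bars are list medians and the dotted line is the median of all genes tested. Small heat shock proteins have a median of 5.93 and nuclear photosynthesis genes have -0.21.

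Hormone lists were divided. Of 20 jasmonate genes tested, 7 were raised (35%) and 7 lowered (35%), with a median of 0.07. The shares over all genes tested were 22.9% raised and 22.6% lowered. JAZ1, a repressor of jasmonate signalling, had 229, 227 and 294 normalized counts at 8 min, against 55.9, 46.2 and 67.5 at 0 min (log2 change 2.13, SE 0.20, limma adjusted p = 1.44e-08), and JAZ5 changed by 1.42. VSP1, a late jasmonate target, had 10.4, 4.62 and 17.9 normalized counts at 8 min, against 41.1, 30.8 and 19.9 at 0 min (log2 change -1.51, SE 0.39, limma adjusted p = 0.0032), and AOC2, an enzyme of synthesis, changed by -0.59. MYC2 is listed at 0 in every library. Of 25 abscisic acid (ABA) genes, 9 were raised (36%) and 5 lowered, with a median of 0.07. NCED3, the rate-limiting enzyme of stress-induced ABA synthesis, had 362, 371 and 406 normalized counts at 8 min, against 149.6, 141 and 157 at 0 min (log2 change 1.34, SE 0.10, limma adjusted p = 2.01e-10), and CYP707A3, which breaks ABA down, averaged 146 ± 13.3 normalized counts at 8 min and 62.6 ± 6.81 at 0 min (SD, n = 3 each). The 5 lowered genes are 20% of the list, against 22.6% lowered over all genes tested, and effectors of ABA and cold were among them. KIN1 had 23.3, 28.7 and 33.1 normalized counts at 8 min, against 57.1, 57.1 and 46.8 at 0 min (log2 change -0.90, SE 0.20, limma adjusted p = 7.54e-04), COR15A changed by -0.71, LTI78 (RD29A) by -0.63 and RAB18 by -0.73.

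Light signalling and clock genes shifted modestly. Of 8 light signalling factors, 3 were raised (37.5%) and 4 lowered (50%), against 22.9% and 22.6% over all genes tested. The raised ones were HY5, HYH and HFR1, which promote light responses, and the lowered ones were PIF factors, which oppose them. HY5 had 1660.1, 1565 and 1529 normalized counts at 8 min, against 613, 581 and 617 at 0 min (log2 change 1.39, SE 0.05, limma adjusted p = 1.77e-15), HFR1 averaged 855 ± 23.3 normalized counts at 8 min and 427 ± 15 at 0 min (SD, n = 3 each), and PIF3 had 171, 170.2 and 192 normalized counts at 8 min, against 265, 310.1 and 286 at 0 min (log2 change -0.69, SE 0.10, limma adjusted p = 4.28e-06). Of 13 clock genes 12 were raised and 0 lowered, with a median of 0.30 and 0 raised 2-fold. PRR9, a morning repressor that light induces, had 2931, 2764 and 2856 normalized counts at 8 min, against 1545, 1452 and 1627 at 0 min (log2 change 0.89, SE 0.05, limma adjusted p = 1.54e-12), ELF3 of the evening complex changed by 0.76, and CCA1 and LHY, the morning factors, by 0.38 and 0.36. TOC1, at 0.39, lost the call without replicate 2 of 8 min, without replicate 1 or without replicate 3 of 0 min, with adjusted p between 0.059 and 0.066. Of 8 flavonoid genes 4 were raised (50%) and 0 lowered. MYB111, an activator of flavonol synthesis, had 65.1, 60.1 and 59 normalized counts at 8 min, against 6.85, 7.25 and 6.93 at 0 min (log2 change 2.96, SE 0.31, limma adjusted p = 5.33e-08). MYB12 changed by 2.10, but by 1.35 with 5 added to each value. Their target TT4 (chalcone synthase) had 3717, 3639.8 and 3727 normalized counts at 8 min, against 2337, 2439 and 2760.5 at 0 min (log2 change 0.56, SE 0.07, limma adjusted p = 1.24e-06).

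Smaller lists gave mixed counts, to be read against 22.9% raised and 22.6% lowered over all genes tested. All 3 carbon starvation genes were raised. SEN1 had 375, 391 and 309 normalized counts at 8 min, against 98.2, 104 and 110.0 at 0 min (log2 change 1.77, SE 0.11, limma adjusted p = 7.03e-12), DIN10 averaged 621 ± 7.30 normalized counts at 8 min and 298 ± 23.5 at 0 min (SD, n = 3 each) and ASN1 changed by 0.22. The ASN1 call was lost without any of 3 libraries, replicates 1 and 2 of 8 min and replicate 1 of 0 min, with adjusted p between 0.073 and 0.15. These genes stood higher at 2 min, with means over 0, 2, 4 and 8 min of 104, 1158, 77.6 and 358 normalized counts for SEN1. Of 15 iron genes 5 were raised (33.3%) and 6 lowered (40%). bHLH39 and bHLH38, activators of iron uptake, changed by 0.56 and 0.47, and ORG1 had 5547, 5499 and 5218 normalized counts at 8 min, against 9351, 8721 and 8640 at 0 min (log2 change -0.72, SE 0.04, limma adjusted p = 1.02e-11). Among 7 genes of mitochondrial retrograde signalling 4 were raised (57.1%) and 0 lowered. BCS1 (OM66) had 977, 937 and 1049 normalized counts at 8 min, against 210.1, 260.2 and 253 at 0 min (log2 change 2.03, SE 0.08, limma adjusted p = 2.73e-15), NDB2 changed by 0.68 and AOX1A, the alternative oxidase, by 0.39. Of 18 tau glutathione transferases 6 were raised (33.3%) and 1 lowered (5.56%). GSTU28 led with 259, 257 and 221 normalized counts at 8 min, against 66.2, 53.5 and 55.4 at 0 min (log2 change 2.06, SE 0.13, limma adjusted p = 6.88e-12). GSTU8 and GSTU4 changed by 1.33 and 0.99.

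Rises among the 12 largest also came from outside the lists. AT4G04025, annotated as a transcription repressor, had 246, 227 and 264 normalized counts at 8 min, against 0, 5.44 and 0 at 0 min (log2 change 7.05, SE 0.49, limma adjusted p = 6.37e-11). Its log2 change was 5.29 with 5 added to each value and 7.94 without replicate 2 of 0 min. AT1G30060, annotated as a COP1-interacting protein, had 99.6, 112 and 100.2 normalized counts at 8 min, against 0, 0 and 0 at 0 min, at least 30.3-fold higher. From the floor of 3 reads in each 0 min library to a mean of at least 50 normalized counts at 8 min, 14 genes rose, 5 of them in the heat lists. Outside the heat lists these included RTFL12, a small peptide of the ROTUNDIFOLIA family, which stood at least 46.0-fold higher with 167, 141 and 165 normalized counts at 8 min, and AT1G50745, annotated as a plant mobile domain protein, at least 43.1-fold higher, which overlaps AT1G50740 on the opposite strand.

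Under the same rule on level and overlap, the 10 largest falls were of low or moderate transcripts, and regulators of growth were among them. OFP16, a transcription repressor of the ovate family, had 41, 34.2 and 47.4 normalized counts at 8 min, against 303, 247 and 252 at 0 min (log2 change -2.68, SE 0.13, limma adjusted p = 6.74e-14). SAUR29, an auxin-responsive protein, had 56.2, 44.4 and 43.8 normalized counts at 8 min, against 194, 185 and 193 at 0 min (log2 change -1.97, SE 0.13, limma adjusted p = 4.31e-11). BEE3, a helix-loop-helix factor that brassinosteroids induce, had 103, 115 and 111 normalized counts at 8 min, against 405, 389.9 and 371 at 0 min (log2 change -1.82, SE 0.09, limma adjusted p = 1.71e-13), and bHLH093 of a related class averaged 40.7 ± 5.65 normalized counts at 8 min and 143 ± 17 at 0 min (SD, n = 3 each). AT4G16146, annotated as a phosphoprotein relative, changed by -2.30, the aspartic protease PCS1 by -1.71, and AT5G02515, a noncoding RNA with AT5G16030 on the opposite strand, by -1.58. Libraries of the 2 times did not overlap for any of the 10 genes. Their courses differed. OFP16 averaged 267, 37.1, 292 and 40.9 normalized counts at 0, 2, 4 and 8 min, and ATCTH, a CCCH zinc finger protein, averaged 586, 133, 652 and 172. AT5G19190, an uncharacterized protein, averaged 1776, 598, 1954 and 597, and AT5G61590, an ERF-type factor, 193, 57.7, 311 and 61.9. These 4 genes were low at 2 and at 8 min and stood above their 0 min mean at 4 min. BEE3, in contrast, averaged 389, 205, 114 and 109 and declined without such a return.

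**Figure D4:**
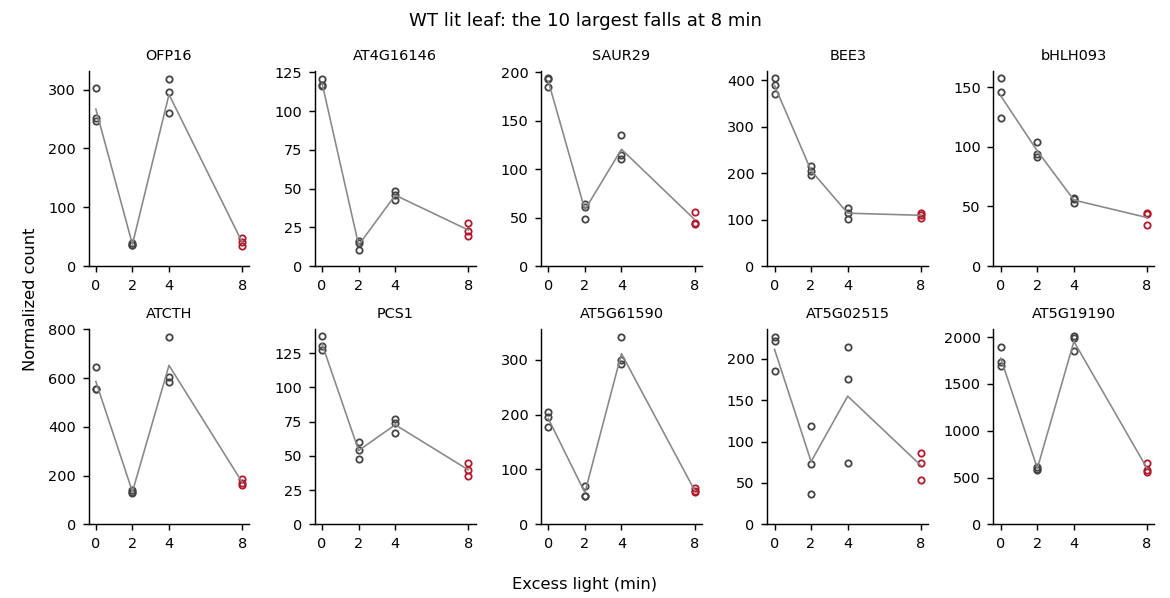
Normalized count (y axis, from 0) over minutes of excess light for the 10 genes with the largest falls at 8 min in the WT lit leaf; circles are libraries (red, 8 min) and lines join the means of 3. OFP16, ATCTH, AT5G61590 and AT5G19190 are low at 2 and 8 min and high at 0 and 4 min, whereas BEE3 has 389 at 0 min and 109 at 8 min with no return.

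Against 4 min, 3423 genes were raised (19%) and 3600 lowered (19.9%) at 8 min, and against 2 min 5214 were raised (28.9%) and 4388 lowered (24.3%). These comparisons share the 8 min libraries with the one against 0 min. Chaperones rose within the last interval. Of small heat shock proteins 17 of 18 were raised over 4 min (median 3.10) and 17 over 2 min with 1 lowered (median 5.80), and of larger chaperones 24 of 27 were raised over 4 min (2 lowered) and 27 over 2 min (median 2.60). HSP101 averaged 1701, 1190, 2200.1 and 37401 normalized counts at 0, 2, 4 and 8 min, and HSP70 9136, 2644, 15338 and 58991, so both were below the start at 2 min. Photosynthesis genes were lowered against 4 min in 26 of 32 and raised in 0. Iron genes were raised over 2 min in 13 of 15 and lowered in 2 (median 1.45). BTS, a ubiquitin ligase that limits the iron response, averaged 10801, 2776, 5745 and 7850 normalized counts at 0, 2, 4 and 8 min. The 3 carbon starvation genes were lowered against 2 min. Scaling matters against 2 min. With all libraries rescaled to the same total the median change of all genes against 2 min was -0.15 and 3350 genes were raised (30.96% of calls, 54.3% as given), but these list counts against 2 min stayed the same. The counts against 4 min stayed the same too, apart from 1 lowered chaperone in place of 2.

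To ask which changes belonged to the lit leaf, its change at 8 min was set against that of the WT systemic leaf in a joint fit of 24 libraries. This fit did not pair the leaves, though both were sampled from the same plants. The change was higher in the lit leaf for 996 genes (5.58%) and lower for 1466 (8.22%) of 17836 tested in both tables, which were normalized separately, so levels were not compared across them. Chaperones stood on the higher side. Of small heat shock proteins 11 of 12 tested in both had a higher change in the lit leaf and 0 a lower one (median difference 4.08), and of larger chaperones 23 of 26 had a higher and 1 a lower change (median difference 1.51). BAG6 changed by 7.96 in the lit leaf and 1.03 in the systemic leaf, a difference of 6.94 (SE 0.17, limma adjusted p = 2.02e-24). HSFA2 changed by 5.14 in the lit leaf and 0.38 in the systemic leaf, a difference of 4.75 (SE 0.09, limma adjusted p = 5.10e-27). Other lists stood on the lower side. Of ER chaperones 10 of 11 had a lower change in the lit leaf and 1 a higher one, of SA and PR genes 13 of 14 a lower and 0 a higher one, and of WRKY factors 15 of 22 a lower and 1 a higher one. In the systemic table PR1 had 1052, 1093 and 1002 normalized counts at 8 min, against 12.9, 15.7 and 34.4 at 0 min, so that its rise there started from a few reads. PR1 changed by 0.52 in the lit leaf and 5.70 in the systemic leaf, a difference of -5.18 (SE 0.29, limma adjusted p = 4.87e-15), and BIP2 by 0.61 in the lit leaf and 1.79 in the systemic leaf. HSFA8 was the factor with a lower change in the lit leaf, 1.19 against 2.78 in the systemic leaf. RBOHD itself changed by 0.65 in the lit leaf and 0.57 in the systemic leaf, a difference of 0.07 (SE 0.06) that did not pass the threshold. With libraries rescaled to the same total, which put the median difference of all genes at -0.12, the calls for small heat shock proteins were 10 higher and 0 lower, for SA and PR genes 0 and 14, for WRKY factors 1 and 16, and for ER and larger chaperones as above.

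**Figure D5:**
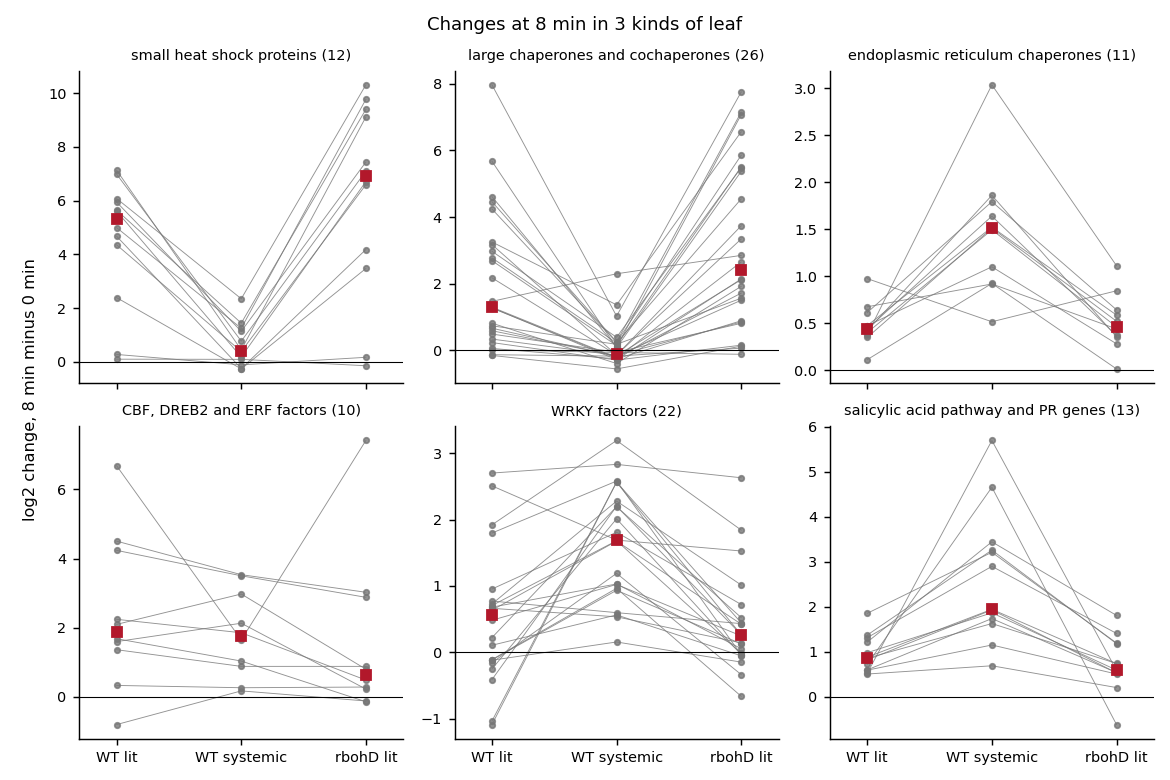
Log2 change from 0 to 8 min (y axis) of list members tested in 3 tables, in the WT lit, WT systemic and rbohD lit leaf; grey lines join the values of a gene and red squares are list medians. For 12 small heat shock proteins the medians are 5.30, 0.41 and 6.90, and for 13 SA and PR genes 0.86, 1.94 and 0.59.

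Against lit rbohD leaves, the WT change at 8 min was higher for 1209 genes (6.92%) and lower for 2015 (11.5%) of 17473. Genotype, experiment and table coincide here, so an effect of the knockout and one of the experiment cannot be told apart. Chaperones had larger log2 changes in the rbohD leaf, and levels were not compared across the tables. Of larger chaperones 22 of 27 had a lower change in WT and 0 a higher one, and of small heat shock proteins 10 of 18 a lower and 0 a higher one. In the rbohD table HSFA2 had 15805, 14864 and 15956 normalized counts at 8 min, against 42, 48.1 and 35.8 at 0 min. Its change there thus started from a low level. HSFA2 changed by 5.14 in WT and 8.51 in rbohD, a difference of -3.37 (SE 0.10, limma adjusted p = 1.06e-24), and HSP101 by 4.46 in WT and 7.15 in rbohD. BAG6, at 7.96 in WT and 7.75 in rbohD, did not differ past the threshold (difference 0.21, SE 0.13). Of CBF, DREB2 and ERF factors 8 of 11 had a higher change in WT and 1 a lower one, while of ROS zinc finger factors 2 of 8 had a higher change and 1 a lower one, and of WRKY factors 5 of 22 a higher and 4 a lower one. ERF5 changed by 1.68 in WT and -0.14 in rbohD (difference 1.82, SE 0.25, limma adjusted p = 1.31e-06), STZ by 4.94 in WT and 3.30 in rbohD, and MYB111 by 2.96 in WT against -0.07 in rbohD. RHL41, at 5.39 in WT and 5.47 in rbohD, did not differ past the threshold (difference -0.08, SE 0.31). All 3 carbon starvation genes had a higher change in WT, SEN1 by 1.77 against -0.05 in rbohD.

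Genes with large changes more often had 1 annotated exon than all genes tested, in both directions. Of protein-coding genes raised at least 4-fold 47.4% of 211 had 1 exon, of those raised at least 2-fold 32.5% of 652, and of those lowered at least 2-fold 46.4% of 166, against 13.9% of 17642 over all genes tested, and the median number of exons was 2 in each set against 5. The median transcript was 1244 bases long in the set raised at least 4-fold and 1426.5 in the lowered one, against 1774 over all genes tested. Among small heat shock proteins 57.9% of 19 had 1 exon, among larger chaperones 7.41% of 27 and among HSFs 0% of 20. These sets were chosen on their change, so these shares are a description.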

How the data were processed

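The RNA libraries used here came from local leaves of WT and rbohD plants, without excess light at 0 min and lit at later times. Unlit systemic leaves of WT plants were also used, and the series holds rbohD systemic leaves that were not used. Per the submitters' processing notes and the study's methods, the authors checked reads with FastQC 0.11.7, aligned them with STAR 2.4.0.1 to TAIR10 and analysed them with DESeq2 1.20.0; the read counter's name and use of strand are not given in the sources used here. The deposited values are a normalized signal, that is, gene counts the authors divided by a size factor for each library, separately in each table, and each is a whole number of reads in 100% of values (tolerance 0.01), so reads per library could be recovered.

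The main test was limma 3.58.1 with an intensity trend (R 4.3.3) on log2(value + 1), with no covariate, over the 12 WT local libraries, and over 24 libraries for differences of changes. Genes with at least 10 normalized counts in 3 or more libraries were kept, and adjusted p-values (Benjamini-Hochberg, two-sided) were called under 0.05. Fold changes on this scale understate those of low genes. Where each 0 min library had at most 3 reads, the fold is a lower bound against 3.425 normalized counts, the value of 3 reads in the shallowest 0 min library; it covers counting error only. On simulated counts for 8 against 0 min (17965 genes) 50 genes were changed at each fold. The test recovered 56%, 64%, 96% and 100% of genes changed 1.25-, 1.5-, 2- and 4-fold, with 18 false calls among 17768 unchanged genes. Far fewer genes were changed there than were called in these data, which affects the adjusted p, so recovery here can differ.

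Genes were named by rule: with a mean of at least 50 normalized counts and no overlap between groups, the 12 largest rises, 10 largest falls, 4 largest gains and 4 largest losses; from each list the 3 largest changes and members needed to state a role; and the 4 largest differences each way between leaves. Members, lists and rule were chosen with earlier results of these data known, and ORA47, the genes at the floor and the neighbouring genes were chosen after their values were seen. Of 369 list entries 365 matched a locus. Gene positions, exons and promoters are RefSeq's, in TAIR10.1, matched by locus ID (99.49% of tested genes), since the files hold no coordinates. edgeR 4.0.16 and DESeq2 1.42.0 on the recovered reads, another pseudocount (5), no filter, rescaling to the same total, a replicate block, a fit of only the groups compared and leaving out each library were alternatives. The study sampled lit and systemic leaves of the same plants, but whether equal replicate numbers mark the same plants is not stated. A block over time and number shared by both leaves was added after seeing the data. Replicate numbers did not pair 8 with 0 min. Same-numbered lit and systemic leaves correlated weakly, and the main test took them as unpaired.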

Additional observations from a re-analysis of the deposited data

Results flagged for a closer look

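The change at 8 min differed between the WT lit leaf and the WT systemic leaf, by the test of the difference itself (limma, 24 libraries), for the 8 genes named by rule. Higher in the lit leaf were BAG6 by 6.94 (SE 0.17, adjusted p = 2.02e-24), AT1G59860 by 6.68 (SE 0.14, adjusted p = 6.67e-26), Hsp70b by 5.59 (SE 0.17, adjusted p = 7.72e-22) and HSP70T-2, another HSP70 relative, by 5.55 (SE 0.15, adjusted p = 8.81e-24), all on the log2 scale. HSP70T-2 had 5888, 6126 and 5889 normalized counts in the lit leaf at 8 min, against 172, 164 and 183 at 0 min, and in the systemic leaf 143, 112 and 124 at 8 min, against 161, 162 and 195 at 0 min.

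Lower in the lit leaf were PR1 by -5.18 (SE 0.29, adjusted p = 4.87e-15), cwINV6, a fructan exohydrolase, by -4.12 (SE 0.58, adjusted p = 2.25e-06), AT3G28510, annotated as a nucleoside triphosphate hydrolase, by -4.10 (SE 0.22, adjusted p = 1.45e-15), and the senescence marker SAG13 by -3.86 (SE 0.47, adjusted p = 1.35e-07). In the systemic table SAG13 had 309.8, 342 and 273 normalized counts at 8 min, against 31.2, 10.8 and 3.80 at 0 min, while the lit leaf had 318, 312 and 466 at 8 min, against 211, 248 and 168 at 0 min.

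Between the WT and the rbohD lit leaf the difference of changes was positive for AT1G07135, annotated as a glycine-rich protein, at 2.46 (SE 0.22, adjusted p = 1.43e-10), for the mitochondrial carrier DIC2 at 2.18 (SE 0.15, adjusted p = 3.50e-13), for SPX1, a sensor in phosphate signalling, at 2.02 (SE 0.10, adjusted p = 5.73e-17), for SEN1 at 1.82 (SE 0.21, adjusted p = 7.15e-08) and for RBOHD, the gene disrupted in the mutant, at 0.74 (SE 0.08, adjusted p = 4.77e-09). DIC2 had 875, 728 and 820.2 normalized counts in WT at 8 min, against 108, 116 and 119 at 0 min, and in rbohD 189, 232 and 217 at 8 min, against 139, 141 and 133 at 0 min.

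It was negative for AT1G07400 at -4.78 (SE 0.13, adjusted p = 8.11e-25), HSP17.6A at -4.23 (SE 0.21, adjusted p = 4.18e-17), HSP17.6II at -3.75 (SE 0.22, adjusted p = 1.43e-15), FSD1 at -3.43 (SE 0.06, adjusted p = 1.70e-30), HSFA2 at -3.37 (SE 0.10, adjusted p = 1.06e-24) and HSP101 at -2.69 (SE 0.08, adjusted p = 3.64e-24). FSD1 changed by -0.57 in WT, so its difference of -3.43 goes with a rise in rbohD. Genotype, experiment and table cannot be told apart in these values.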

How the results depend on the processing

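The count of called genes stayed within 1.5 times its value under each alternative for each of the 5 comparisons, and no result reversed, but its split moved with scaling in 2 of them. With all libraries rescaled to the same total, 8 against 2 min gave 3350 raised and 7469 lowered genes (5214 and 4388 as deposited), and the lit against the systemic leaf gave 511 higher and 2798 lower (996 and 1466 as deposited); the raised share of calls was 30.96% in place of 54.3%, and 15.44% in place of 40.45%. The median of all genes was then -0.15 and -0.12 log2. Leaving out 1 library at a time gave 7121 to 7697 calls at 8 against 0 min (3564 to 3917 raised, 3529 to 3780 lowered), 5957 to 6371 against 4 min, 8569 to 8943 against 2 min, 2016 to 2427 against the systemic leaf and 2753 to 3131 against rbohD. At 8 against 0 min edgeR called 8516 genes and DESeq2 7097. Replicate numbers did not pair 8 with 0 min: same-numbered deviations correlated at -0.0274, -0.0172 and 0.00168 and the labels name no shared batch; a replicate block gave 8347 calls. Same-numbered lit and systemic leaves of a time correlated at -0.00414 to 0.136 (other numbers -0.12 to 0.0798). At 0 min same numbers gave 0.0836, 0.0576 and 0.0763, and other numbers -0.0556 to -0.0143. These correlations are weak and do not exclude a pairing of the leaves, which the main test did not use. A replicate block over time and number shared by both leaves, chosen after seeing the data, gave 2730 calls (1151 higher, 1579 lower). Of 1955 values for 141 results on named genes, 1939 kept their call, 11 lost it and 5 gained it (lost: RBCS1A, CAB1, ASN1 and TOC1; gained: CAT2, NPQ4 and AT3G28510), the cause of which was not tested, and of 572 list counts 17 moved by over 1.5 times. In simulated counts for 8 against 0 min 56% of genes changed 1.25-fold were recovered. Far fewer genes were changed there than were called in these data, so recovery of small changes here was not measured.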

Other observations

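Some genes raised at least 4-fold in the lit leaf at 8 min stood beside each other. Of 11021 neighbouring pairs with both genes tested, 273 held at least 1 such gene and 17 held 2, of which 11 lay on the same strand, 4 were convergent and 2 divergent, against 5752, 2698 and 2571 among all pairs. These pairs held 31 of the 225 genes (13.78%), whereas 1.246% of all genes tested were raised at least 4-fold. The 2 shares are not the same measure, since a gene can have a neighbour on each side. Neighbours can share reads, duplicates can share sequence and the use of strand in counting is not given, and the part of these in these values was not tested.

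PDX1.2, a pseudoenzyme of vitamin B6 synthesis, averaged 6032 ± 156 normalized counts at 8 min and 129 ± 38.5 at 0 min (SD, n = 3 each, log2 change 5.58, limma adjusted p = 1.64e-19). Its convergent neighbour AT3G16040, annotated as a translation machinery protein, averaged 82 ± 12 at 8 min and was at 0 in each 0 min library, and their annotations overlap by 3 bases. The uncharacterized AT1G59865 averaged 243 ± 15.3 at 8 min and 5.30 ± 3.91 at 0 min beside AT1G59860, which averaged 15062 ± 456 at 8 min and 107 ± 4.52 at 0 min.

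Some neighbours lay on the same strand. RABA2b, a small GTPase, averaged 135 ± 8.61 at 8 min and 19.2 ± 3.80 at 0 min, 246 bases from AT1G07400, which averaged 8851 ± 413 at 8 min and 278 ± 17.3 at 0 min. The zinc transporter ZIP4 averaged 586 ± 19 at 8 min and 72 ± 3.23 at 0 min, and AT1G10980, 84 bases away, averaged 38.1 ± 5.95 at 8 min with 0 in each 0 min library.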
